A study of Mus musculus with 4 samples.

Results

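Small nucleolar RNAs (snoRNAs) and small Cajal body RNAs (scaRNAs) left short fragments in every small RNA library of mouse fetal liver, and the sites from which these fragments came differed between the 2 snoRNA classes. The genes described here were chosen by their reads. A read of at least 18 nt that matched no miRNA hairpin was matched without mismatch to annotated snoRNA and scaRNA genes, and a gene was kept with at least 20 reads summed over the 4 libraries. In all, 171 of 1558 annotated genes were kept, and 453 had at least 1 read. Genes that shared at least 50% of the reads of the smaller gene, mostly near-identical copies, were merged, which gave 113 members with 13178 reads. Of the members, 34 were merged from several genes, so their reads cannot be assigned to 1 copy. By symbol, 37 members were C/D box (Snord), 19 were H/ACA (Snora), 3 were scaRNAs and 54 had other names, such as Rnu3b1 or a provisional Gm symbol.

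The study compared wildtype fetal liver with fetal liver of an Ago2 catalytic dead mutant, called Ago2 CD, with 2 libraries per genotype that the series' design text describes as biological replicates. Ago2 is the Argonaute protein that can cleave RNA paired to its guide. The labels give no strain, fetal age or allele details, and p-values measure the spread between these libraries only. Total RNA was extracted with Trizol and cloned with a TruSeq small RNA kit under a modified protocol.

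C/D box snoRNAs carry a C box near the 5′ end and a D box near the 3′ end, which come together to bind the proteins that methylate ribosomal and spliceosomal RNA at the sites the snoRNA pairs with. H/ACA snoRNAs fold into a pair of hairpins, each followed by a short box (the H box and the terminal ACA), and guide the conversion of uridine to pseudouridine. Most mammalian snoRNAs are cut from introns of host genes, many of which encode ribosomal proteins, and scaRNAs carry the same boxes but act on spliceosomal RNAs in Cajal bodies.

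The following sequences are whole genes from GENCODE vM21 (GRCm38), 5′ to 3′ on the gene's strand, with the most frequent fragment in capitals. They were chosen to show where the fragments start and end in each class. Snord14c, Snord80, Snora33, Snora41, Snora21 and Rnu3b1 stand for members merged from several genes. The positions and hosts given for them below are those of the gene shown. The first 3 are C/D box members that were read from the 5′ end, and the next pair are C/D box members that were read from the 3′ side.
Snord14c: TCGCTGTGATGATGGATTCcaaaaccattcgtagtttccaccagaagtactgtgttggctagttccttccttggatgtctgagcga
Snord35a: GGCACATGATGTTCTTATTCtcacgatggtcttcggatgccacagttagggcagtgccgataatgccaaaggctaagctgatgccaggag
Gm24452: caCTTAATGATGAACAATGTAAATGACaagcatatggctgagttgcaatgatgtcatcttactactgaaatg
Snord80: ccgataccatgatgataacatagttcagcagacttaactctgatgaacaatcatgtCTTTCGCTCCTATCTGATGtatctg
Snord12: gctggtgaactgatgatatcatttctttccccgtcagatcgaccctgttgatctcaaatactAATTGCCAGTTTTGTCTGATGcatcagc
Of the H/ACA members, Snora33 was read from the 5′ end, Snora41 and Snora21 from the 3′ end, and Gm22620 from just past its middle.
Snora33: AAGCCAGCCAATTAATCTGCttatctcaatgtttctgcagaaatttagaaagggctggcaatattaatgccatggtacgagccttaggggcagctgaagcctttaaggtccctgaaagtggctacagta
Snora41: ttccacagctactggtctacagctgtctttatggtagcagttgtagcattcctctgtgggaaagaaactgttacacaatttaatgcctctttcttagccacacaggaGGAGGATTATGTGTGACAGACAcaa
Snora21: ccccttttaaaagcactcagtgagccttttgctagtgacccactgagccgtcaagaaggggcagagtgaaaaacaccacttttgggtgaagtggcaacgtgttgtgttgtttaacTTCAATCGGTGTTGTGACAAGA
Gm22620: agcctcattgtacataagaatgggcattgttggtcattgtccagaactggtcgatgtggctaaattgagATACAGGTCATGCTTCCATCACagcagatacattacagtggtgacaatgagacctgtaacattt
The U3 snoRNA gene Rnu3b1 is shown because its fragments came from inside the molecule.
Rnu3b1: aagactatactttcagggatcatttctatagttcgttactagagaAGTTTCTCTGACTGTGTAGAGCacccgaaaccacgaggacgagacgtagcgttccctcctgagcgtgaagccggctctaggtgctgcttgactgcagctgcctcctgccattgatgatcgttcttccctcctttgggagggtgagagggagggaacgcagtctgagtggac

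Snord14c lies at chr9:40803583-40803668 (plus strand) within Hspa8, the gene of a constitutive heat shock chaperone, and overlaps an exon of some Hspa8 transcript. Its most frequent fragment was bases 1 to 19, with 252 of its 1306 reads (72 and 33 reads in wildtype replicates 1 and 2, 61 and 86 in Ago2 CD replicates 1 and 2). Only reads inside the annotated gene were counted, so none could start before base 1. Among them, base 1 began 90.7% of Snord14c reads, while the most frequent last base, base 19, ended 19.8% and base 18 ended 16%. Snord35a (chr7:45126346-45126435, minus strand, an intron of the ribosomal protein gene Rpl13a) had 67.0% of reads beginning at base 1 and 21.7% ending at base 20. With reads that pass a gene end by up to 5 nt added, without a check of the flanking bases, 70.1% of Snord14c reads began at base 1 and 16.4% before it, and the mean level rose from 24.0 to 31.1 reads per 1000000 reads outside Mir451a. For Snord35a these shares were 63.5% and 5.21%. Gm24452 (chr19:8724531-8724602, plus strand, within Snhg1) was read from base 3 to base 27 most often, in 104 reads.

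Snord80 (chr1:161037601-161037681, plus strand, within Gas5) gave its most frequent fragment at bases 57 to 75, which held 36.04% of its reads and ended 2 nt after the D box. Snord12 (chr2:167065276-167065365, plus strand, within Zfas1) gave bases 63 to 83 most often, in 30 reads, and this fragment also ended 2 nt after the D box.

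In the H/ACA class, the end could be the sharp side. Snora21 (chr11:97781639-97781775, minus strand, an intron of Rpl23) was read from base 116 to its last base, 137, in 51.7% of its reads, and 95.4% of its reads ended on base 137, 3 nt after the ACA. Snora24, within the host gene Snhg8, ended on its last base, 130, in 82.1% of reads. Only reads inside the annotated gene were counted, so none could end past the last base. Snora41 (chr1:63179004-63179135, plus strand, an intron of Eef1b2) had its most frequent fragment at bases 108 to 129, which ended on the last base of the ACA. Snora33 (chr10:23785347-23785475, minus strand, within Rps12) was read mostly from the first bases, with 92.1% of reads starting in the first 5 nt. Gm22620 (chr9:15315189-15315321, plus strand, within Taf1d) had 97.0% of its reads at neither end and its most frequent fragment at bases 70 to 91.

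Members with provisional names were sorted by their boxes. A gene was called C/D box by sequence with TGATGA in its first 20 nt and CTGA in its last 20 nt, on the gene's strand. It was called H/ACA by sequence with ACA close to the 3′ end, ANANNA starting between bases 41 and 101 and a length of at least 110 nt. Of 98 genes named Snord 68 met the first rule, of 42 named Snora 36 met the second, and none met the rule of the other class. Among all 1558 snoRNA and scaRNA genes, 20.2% met the C/D rule and 36.6% the H/ACA rule, against 0% and 0.667% of 1949 snRNA and misc_RNA genes. By name or boxes, 66 members were C/D box, 33 were H/ACA, 3 were scaRNAs and 11 stayed unclassified. This sorting was added after seeing the data, and totals by name are given first.

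The libraries held 13138065 to 21875540 reads, and 9265455 to 21828040 outside Mir451a, the hairpin whose processing needs Ago2 cleavage and which therefore served as the check of the labels. Mir451a had 5303686 and 3777645 reads in wildtype against 43800 and 27239 in Ago2 CD, and fell by 7.92 on the log2 scale. Levels are given as RPM, reads per 1000000 reads outside Mir451a, so that its loss does not raise the other values. The longest read was 50 nt for the first wildtype and the second Ago2 CD library and 46 nt for the other two, so each read length holds 1 library of each genotype. Of the hairpin markers of other cells, hepatocyte, neural, and myeloid and lymphoid hairpins followed read length, erythroid Mir144 followed genotype and muscle hairpins followed neither. The hepatocyte hairpin Mir122 stood at 11509 and 18276 RPM in the 50 nt libraries and 49221 and 61629 in the 46 nt libraries, and 6 of 6 neural hairpins, all detected, summed to 7.52 and 10.3 against 257 and 288. Mir144 of erythroid cells stood at 161036 and 160835 RPM in wildtype against 223599 and 205328 in Ago2 CD. The other sums ranged, for 2 of 2 myeloid and lymphoid hairpins, from 37686 to 67894, and for 6 of 6 muscle hairpins from 12.1 to 412, with the highest sum in wildtype replicate 1. No marker list was at 0 in any library, and the part of these cells in the results was not tested.

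All members together stood at 265 and 217 RPM in wildtype replicates 1 and 2, and at 201 and 265 in Ago2 CD replicates 1 and 2. The genotypes overlapped, and the order of the libraries followed read length. In bulk tissue, fewer cells of a type and less RNA per cell cannot be told apart. The reads behind these values were 2754, 2009, 4388 and 4027, in the order wildtype replicates 1 and 2 and Ago2 CD replicates 1 and 2, which holds for every series of 4 values. The members were few and uneven: 10 of them held 41.9% of the reads, the median member had 58 reads, and 111 had a read in every library. At the limit of the choice, Gm22303, Gm26330, Snora31, Snora52 and Snord82 entered with 20 reads, and Gm22589, Gm23344, Gm24044 and Gm26130 stayed out with 19.

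C/D box members by name gave 125 and 93.1 RPM in wildtype against 79.2 and 132 in Ago2 CD, or 109 ± 22.6 against 106 ± 37.3 (SD, n = 2 each). Both 50 nt libraries lay above both 46 nt libraries, and the genotypes overlapped (exact permutation test, two-sided, p = 1). The ratio of Ago2 CD to wildtype was 0.850 within the 46 nt libraries and 1.05 within the 50 nt libraries. H/ACA members by name were nearly level, at 22.6 and 24.3 RPM in wildtype against 24.2 and 22.4 in Ago2 CD (23.5 ± 1.16 against 23.3 ± 1.33, SD, n = 2 each), with p = 0.667 in the exact permutation test. C/D box reads outnumbered H/ACA reads by 5.52 and 3.84 in wildtype against 3.27 and 5.90 in Ago2 CD, and this ratio did not separate the genotypes either (exact permutation p = 1). By name or boxes the levels were 206, 156, 139 and 204 RPM for C/D box members and 42.4, 43.7, 45.3 and 37.9 for H/ACA members.

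scaRNA fragments were rare, with 16, 17, 44 and 54 reads, and were the class whose genotypes did not overlap. They stood at 1.54 and 1.83 RPM in wildtype against 2.02 and 3.55 in Ago2 CD. The exact permutation p was 0.333, the smallest that 2 libraries against 2 can give. Scarna10, the most abundant, stood at 1.16, 1.19, 0.962 and 2.37 RPM, and its genotypes overlapped. Scarna3b and Gm22009 had 28 and 23 reads in all. Reads of the hairpins Mir1843a and Mir1843b that also match Scarna3b were set aside as hairpin reads. These stood at 5.78 and 11.5 RPM in wildtype against 9.99 and 8.81 in Ago2 CD, and here the genotypes overlapped. The scaRNA levels above leave them out. In all, 8 class values (4 levels or ratios and 4 shares) were tested by exact permutation, and every p adjusted over the 8 was 1. Erythroid Mir144 was also higher in both Ago2 CD libraries, and its part in the scaRNA and U3 values and in the end shares given later was not tested.

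**Figure D1:**
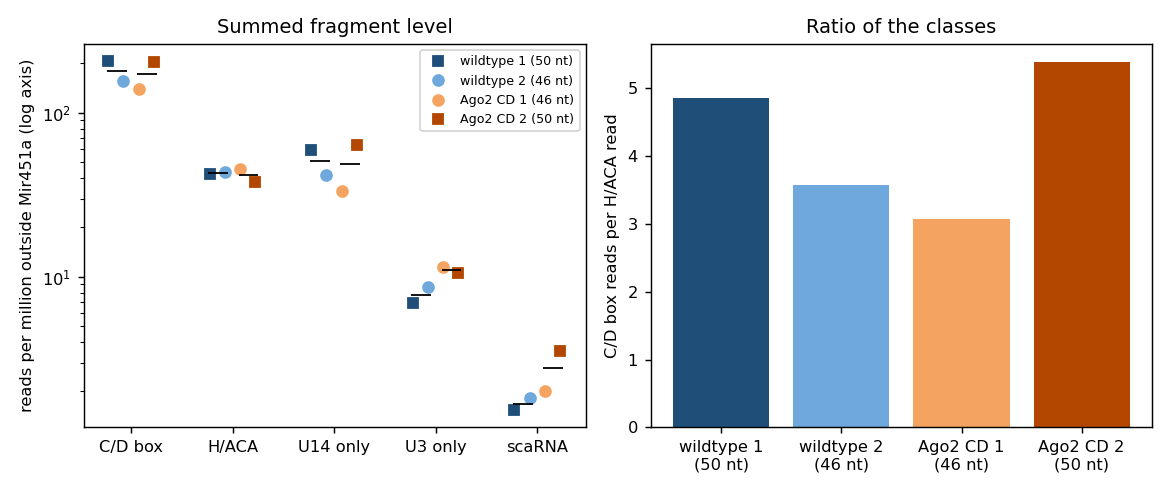
Left, summed level of C/D box, H/ACA, U14, U3 and scaRNA fragments (RPM outside Mir451a, log axis) in each library, with squares for 50 nt and circles for 46 nt libraries and a line for each genotype's mean. C/D box and H/ACA are by name or boxes. Right, C/D box reads per H/ACA read in each library: the bars of the 50 nt libraries stand at 4.85 and 5.38 and those of the 46 nt libraries at 3.57 and 3.07.

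U14, a C/D box snoRNA needed for processing of the 18S ribosomal RNA precursor as well as for methylation, gave more fragments than any other snoRNA. Its 2 members, Snord14e merged with Snord14a and Snord14c merged with Snord14d, held 20.5% of all member reads. Together they stood at 59.4 and 41.7 RPM in wildtype against 33.4 and 63.9 in Ago2 CD, again with both 50 nt libraries highest and the genotypes overlapping. The 2 members were about equal, with mean levels of 25.6 for Snord14e and 24.0 for Snord14c.

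U3, the snoRNA that directs the first cleavages of the ribosomal RNA precursor, was represented by Rnu3b1 and its near-identical copies, 19 annotated genes merged into 1 member (chr11:87443237-87443452, plus strand, for Rnu3b1). Its fragments stood at 6.94 and 8.63 RPM in wildtype against 11.5 and 10.5 in Ago2 CD. Both Ago2 CD libraries lay above both wildtype libraries, with a log2 fold change of 0.50 (SE 0.52) that did not pass the test (edgeR adjusted p = 0.999). Unlike U14, U3 was read mostly from inside the molecule: 83.6% of its reads touched neither end, and 13.5% started in the first 5 nt. The most frequent U3 fragment, bases 46 to 67, stood at 0.867 and 1.73 RPM in wildtype against 2.15 and 1.45 in Ago2 CD, and here the genotypes overlapped.

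The list of snoRNAs that act in ribosomal RNA processing held 6 members, the 3 above with Snord118 (U8), Snora73a (U17) and Snord22 (U22). Of these, 5 could be tested and 0 passed (edgeR, 0.202% of all 494 features passed). Snord118, needed for processing of the large subunit RNAs, stood at 2.22 and 3.24 RPM in wildtype against 3.16 and 4.60 in Ago2 CD, and it had no read in the first 5 nt. Its most frequent fragment lay at bases 82 to 105. These levels count reads inside the annotated gene, 192 in all. A further 323 reads passed its last base by up to 5 nt (109 and 20 in wildtype, 35 and 159 in Ago2 CD), and with them and 1 read at the other end the mean level rose from 3.30 to 9.50 RPM. With tailed reads added it was 9.58 RPM, and with reads that match 1 gene only it was 0.727 RPM. Snora73a was near 1 RPM (0.964, 1.40, 0.596 and 1.58), and Snord22 stood at 0.289, 0.648, 0.229 and 1.05.

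Fragments of neighbouring snoRNAs of 1 host gene differed widely. Snhg1, a host gene whose spliced RNA has no conserved protein, held 8 members with 27.9 and 19.9 RPM in wildtype against 18.6 and 21.8 in Ago2 CD. Within it, Gm24452 stood at 8.29 and 9.07 RPM in wildtype against 8.52 and 7.23 in Ago2 CD, while Gm23246 in the same host stood at 0.867, 0.108, 0.229 and 0.460. Gas5, another such host, also held 8 members, at 25.2 and 19.9 RPM in wildtype against 18.4 and 23.5 in Ago2 CD. Its most abundant member, annotated as a snoRNA under the symbol Mir5117, stood at 8.96 and 8.63 RPM in wildtype against 6.28 and 7.56 in Ago2 CD and had 98.4% of its reads on the 5′ side of the gene's midpoint. Snord80, in the same host, had 19.8% there. It was merged from 2 annotated genes, so its reads, which the host's sum includes, cannot be assigned to 1 copy. Rpl13a held Snord35a, Snord32a and Snord34, at 11.5 and 8.96 RPM in wildtype against 5.50 and 16.5 in Ago2 CD, where the Ago2 CD libraries were the lowest and the highest of the 4. Zfas1 held 3 members at 10.5 and 10.3 RPM in wildtype against 6.23 and 7.63 in Ago2 CD, so both Ago2 CD libraries lay below both wildtype libraries. The sum over this host was not tested. Sums of other hosts also lay apart, lower for Rpsa and Sf3b3 and higher for Rpl17. How many hosts did so was not counted. Of all features, 9.31% lay below in both Ago2 CD libraries and 12.3% above. By annotation, 44 members lay in introns, 63 overlapped an exon of some transcript of the host and 6 lay outside annotated hosts.

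Several other abundant C/D box members were also highest in 50 nt libraries. Snord35a, which guides methylation and lies in Rpl13a, stood at 5.78 and 3.89 RPM in wildtype against 2.79 and 9.995 in Ago2 CD. Snord110, in an intron of Nop56, a gene that encodes a core C/D box protein, stood at 6.94 and 3.02 RPM in wildtype against 2.11 and 3.75 in Ago2 CD. In both, the groups overlapped. Snord83b, within Rpl3, went the other way, at 1.45, 3.45, 2.98 and 2.10 RPM. The H/ACA members Snora41 (1.64, 2.91, 2.61 and 1.05) and Snora24 (1.25, 2.70, 1.92 and 1.71) were likewise higher in both 46 nt libraries. The most frequent fragment of Snord83b, of 27 nt, had 0, 12, 29 and 0 reads, so it was read only in the 46 nt libraries.

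A list of imprinted C/D box snoRNAs, a group known mainly from brain, was drawn up by symbol and by the hosts Rian, Meg3 and Mirg. No gene of the annotation carries the symbols Snord113, Snord114 or Snord115, so the list does not hold all such genes. Of its 32 genes, 22 had no read and 1 was a member, DQ267100 in Rian, with 2, 2, 15 and 5 reads. It did not pass the filter on low counts and was not tested. The 17 Snord116 genes had 0 reads in each library, which allows up to 3 reads per library. Snord64 had 1, 1, 4 and 2 reads, and Snord107 had 1 read in Ago2 CD replicate 2. Outside the list and outside annotated hosts, 3 more C/D box members lay on the same chromosome as DQ267100 (chr12:109649617-109649688), and they were picked out after their values were seen. Gm23736, merged with Gm22981 (chr12:109680800-109680874), stood at 1.64, 2.59, 3.94 and 1.64 RPM. AF357341 (chr12:109681519-109681593) stood at 1.54, 0.863, 0.687 and 1.25 RPM, and Gm25854 (chr12:109686798-109686869) at 0.289, 1.19, 0.825 and 0.592. The genotypes overlapped in each of these 3.

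Fragment starts and ends lay at set distances from the boxes in both genotypes. In the 51 C/D box members with both boxes, 59.2% and 58.3% of wildtype reads against 53.9% and 59.4% of Ago2 CD reads began exactly 6 nt before the C box (95% exact Clopper-Pearson intervals of 56.9 to 61.4, 55.4 to 61.2, 51.9 to 55.9 and 57.5 to 61.4, counting error only). A further 14.1%, 15.6%, 15.7% and 11.4% began 5 nt before it. The most frequent start was 6 nt before the C box in 31 of the 51 members and 5 nt before it in 11. The annotated gene itself starts 7 nt before the C box in 65.0% of the 314 genes with both boxes. Among the 31 members whose annotation reaches 7 nt or more before the C box, 44.4%, 45.1%, 42.4% and 39.96% of reads began 6 nt before it and 1.83%, 2.80%, 2.19% and 0.925% began on the first annotated base. Their reads thus began inside the annotated gene. In other members, such as Snord14c and Snord110, the annotated gene starts 6 nt before the C box. There, a read starting 6 nt before the C box starts on base 1, and reads that began earlier were not counted.

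Reads from the 3′ side of these members ended just past the D box: 56.3% and 62.7% of such reads in wildtype against 52.5% and 49.6% in Ago2 CD ended 2 nt after it. A whole D box was present in 91.5%, 90.7%, 90.6% and 89.8% of the 352, 204, 499 and 548 reads of the 3′ side. The longest matched read was 35 nt, and no read held both boxes. In the 31 H/ACA members with an ACA near the end, 26.0% and 18.6% of wildtype reads against 17.6% and 21.7% of Ago2 CD reads ended exactly 3 nt after the ACA, the point at which these molecules end. The ACA was sought only near the annotated end, and only reads inside the gene were counted, so this peak was bounded by the annotation.

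**Figure D2:**
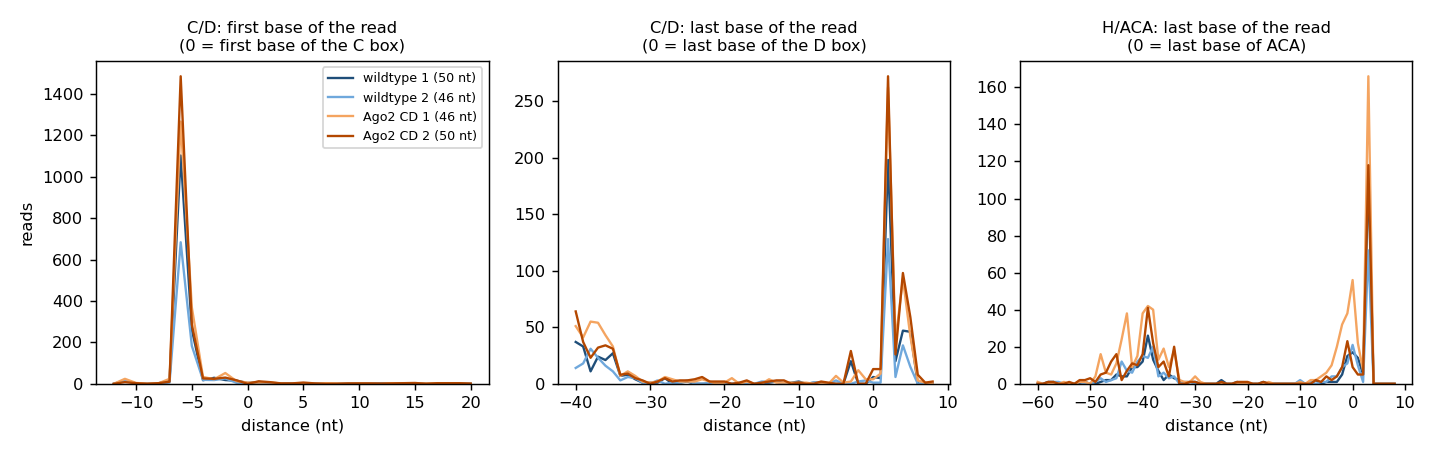
Number of reads (y axis) by distance in nt (x axis) of their first base from the C box and of their last base from the D box in C/D box members, and of their last base from the ACA in H/ACA members, with 1 line per library. In each library the peaks stand 6 nt before the C box, 2 nt after the D box and 3 nt after the ACA. Only reads inside the annotated gene are counted, so none can pass its ends.

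C/D box fragments came mostly from the 5′ side of the molecule and H/ACA fragments mostly from the 3′ side. By name or boxes, 79.7% and 80.8% of C/D box reads in wildtype against 77.4% and 75.7% in Ago2 CD had their middle on the 5′ side of the gene's midpoint. The same share for H/ACA reads was 33.4% and 33.3% in wildtype against 26.8% and 27.6% in Ago2 CD. Within a library the classes differed by 48.1 ± 1.81 percentage points (SD, n = 4 libraries), and the C/D box share was higher in 4 of 4 (exact sign-flip permutation test over libraries, p = 0.125, the smallest that 4 libraries allow). Counted by member, 50 of 66 C/D box members had over 50% of their reads on the 5′ side and 23 of 33 H/ACA members had under 50% there. The median member had 82.8% and 9.43% of its reads on the 5′ side, respectively.

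H/ACA fragments lay in 3 places: near the start of the molecule, just past its middle and near its end. Their distance from the H box was not measured. Of 4 equal parts of the molecule, the first held 32.05%, 31.4%, 25.5% and 25.5% of the reads, the second 1.36%, 1.98%, 1.31% and 2.08%, the third 25.9%, 31.4%, 33.9% and 38.8%, and the last 40.7%, 35.3%, 39.3% and 33.6%. Some members show the middle and last of these places. Gm22806, merged with Snora2b, had its most frequent fragment at bases 65 to 89, Snora44 at bases 64 to 85 and Snora7a at bases 115 to 136.

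**Figure D3:**
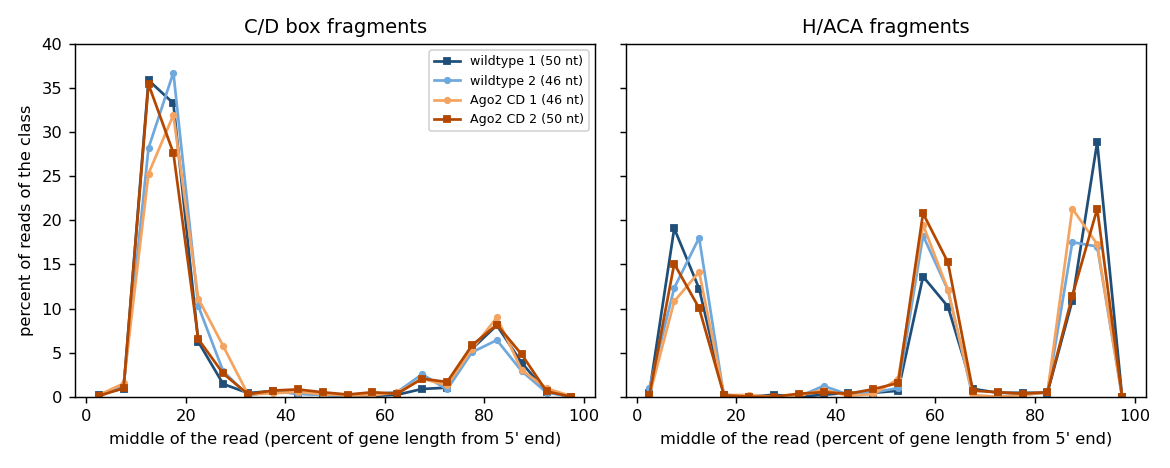
Percent of the reads of a class (y axis) by the middle of the read in percent of the gene's length from its 5′ end (x axis, 20 bins), with 1 line per library. C/D box reads peak near the 5′ end with a smaller peak near the 3′ end, and H/ACA reads form 3 peaks, in all 4 libraries.

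The share of reads from the 5′ end was lower in both Ago2 CD libraries in both classes. Of the C/D box reads by name, 75.04% and 75.2% in wildtype against 69.3% and 71.6% in Ago2 CD began in the first 5 nt (75.1 ± 0.116 against 70.5 ± 1.62, SD, n = 2 each). The genotypes did not overlap, and the difference was of the same sign within each read length, at -5.87 points in the 46 nt and -3.42 points in the 50 nt libraries. The exact permutation p was 0.333, the smallest possible here. Without U14 the shares were 59.7%, 63.5%, 55.0% and 54.0%. The shift was not uniform over members. Of the 20 C/D box members by name or boxes with at least 20 reads in every library, the mean share was lower in Ago2 CD in 13 and higher in 4. Over the Snord-named ones alone, 8 of 11 had the lower mean in Ago2 CD and 2 the higher, yet the mean of the library medians was 1.13 points higher in Ago2 CD. The share ending in the last 5 nt had the higher mean in Ago2 CD in 15 of the 20 members and the lower in 2. All members come from the same libraries, so they are not independent. Such counts were not made over other small RNA genes. H/ACA reads by name began in the first 5 nt in 44.7% and 41.3% of cases in wildtype against 34.8% and 27.4% in Ago2 CD, again without overlap (exact permutation p = 0.333), and this was not among the 8 class tests. Only 3 H/ACA members by name or boxes had at least 20 reads in every library, and their mean 5′ end share was higher in Ago2 CD in 1 and lower in 1. The share of H/ACA reads ending in the last 5 nt was 39.6% and 33.3% in wildtype against 37.996% and 38.5% in Ago2 CD, with overlap and an exact permutation p of 1.

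The balance between 3′ and 5′ fragments was then tested gene by gene. The log2 ratio of reads ending in the last 5 nt to reads starting in the first 5 nt could be tested for 35 small RNA genes, 15 of them members. None passed (limma, 0 members at an adjusted p under 0.05, 0% of all 35, and 0 at an unadjusted p under 0.05). Snord110 was the tested member whose ratio did not overlap between genotypes, with 0, 0, 1 and 1 reads at the 3′ end and 69, 28, 45 and 54 at the 5′ end. How many of all 35 genes lay apart was not counted.

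Fragments were short in both classes. Reads of 18 to 27 nt made up 97.6% and 94.6% of the C/D box reads by name in wildtype against 92.9% and 96.6% in Ago2 CD (95% exact binomial intervals of 96.6 to 98.4, 92.8 to 96.0, 91.6 to 94.1 and 95.7 to 97.4). For H/ACA reads by name the shares were 89.8% and 83.6% in wildtype against 83.4% and 95.6% in Ago2 CD. Both 46 nt libraries had the lower shares, and the genotypes overlapped in both classes (exact permutation p = 0.667 for C/D box and p = 1 for H/ACA). Reads of 30 nt or more were 0.327% and 1.74% of member reads in wildtype against 3.78% and 0.273% in Ago2 CD, and the longest was 31, 35, 33 and 30 nt.

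The classes differed in shape. H/ACA reads by name or boxes peaked at 22 nt, with 18.6% and 15.3% of reads in wildtype against 18.5% and 18.02% in Ago2 CD, while the C/D box share at 22 nt was 11.9%, 12.4%, 11.7% and 11.7%, close to its share at 18 nt of 14.4%, 10.5%, 11.2% and 12.3%. The H/ACA share at 22 nt was higher in 4 of 4 libraries, by 5.70 ± 1.90 percentage points (SD, n = 4; exact sign-flip permutation p = 0.125). The shortest H/ACA reads by name, of 18 to 20 nt, followed read length, with 34.04% and 37.4% in the 50 nt libraries against 17.3% and 13.04% in the 46 nt libraries.

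**Figure D4:**
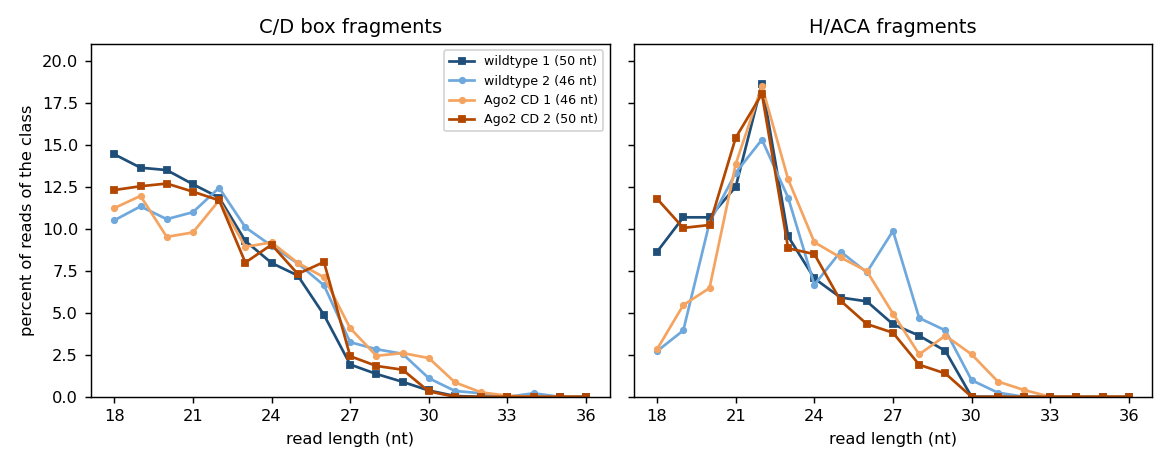
Percent of the reads of a class (y axis) by read length in nt (x axis), for C/D box and H/ACA members by name or boxes, with 1 line per library. C/D box reads are spread almost evenly from 18 to 22 nt and thin out above, and H/ACA reads peak at 22 nt in all 4 libraries, where the highest value is 18.6%.

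Gene by gene, the log2 ratio of reads of 18 to 27 nt to longer reads could be tested for 57 small RNA genes, 23 of them members. None passed (limma, 0 at an adjusted p under 0.05, 0% of all 57, and 0 at an unadjusted p under 0.05). Snord14e had the smallest p among members, with 1 and 2 long reads in wildtype against 9 and 12 in Ago2 CD (log2 change of -1.71, SE 0.997, adjusted p = 0.996 in limma). The groups of Rnu73b, Mir5117, Gm25855 and Snord118 lay apart in the same direction, each on 0 to 5 long reads a library. How many of all 57 genes lay apart was not counted, so these members are given as values only. Gm24313 and Snord110 lay apart in the other direction, but Gm24313 had 0 long reads in every library and Snord110 had 1 in all, so their ratios rest on the pseudocount of 0.5 reads.

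The abundance of single members was tested with edgeR over 494 small RNA features. Of the 113 members 80 passed the filter on low counts, and 0 of them passed the test, against 0.202% of all features, which was Mir451a alone. At an unadjusted p under 0.05, edgeR gave 1 member, Gm22027, against 1.42% of all features. DESeq2 gave 0 members at an unadjusted p under 0.05, against 9 of 494 features. At an adjusted p under 0.05 it gave 0 members, against 5 of 494 features. The standard error of a member's log2 fold change had a median of 0.60 and a range of 0.47 to 1.19. Fold changes as large as -1.39 and 1.04 on the log2 scale did not pass the test. The members with most reads, Snord14e and Snord14c, had standard errors of 0.63 and 0.59, close to the median standard error. The smallest change that could be detected was not determined. The median log2 fold change of the tested members was -0.08, against 0.06 over all features. Both Ago2 CD libraries lay above both wildtype libraries in 9 members (11.3%, against 12.3% of all features) and below them in 11 (13.8%, against 9.31%).

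**Figure D5:**
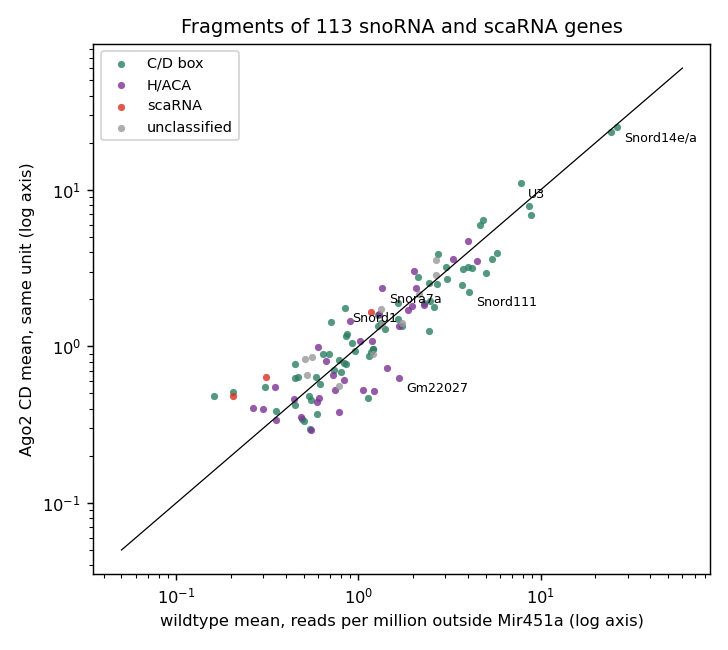
Mean level of each of the 113 members in Ago2 CD (y axis) against wildtype (x axis), in RPM outside Mir451a on log axes, coloured by class by name or boxes, with the line of equal levels. Most members lie near the line, and none passed the test.

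The members with the smallest p among those whose groups did not overlap and whose mean level was at least 1 RPM are given as values. Gm22027, an H/ACA snoRNA by its boxes in an intron of Sf3b4, stood at 1.73 and 1.62 RPM in wildtype against 0.733 and 0.526 in Ago2 CD, a log2 fold change of -1.39 (SE 0.54, unadjusted p = 0.0457, edgeR adjusted p = 0.999). Within the read lengths the log2 difference was -1.01 at 46 nt and -1.49 at 50 nt. Gm25878 in Zfas1 stood at 2.60 and 2.27 against 1.15 and 1.38 RPM. Snord111, within Sf3b3, stood at 3.85 and 4.21 against 1.70 and 2.76, and Snord12 at 3.66 and 3.78 against 2.79 and 2.17. Gm23451, a merged H/ACA group, stood at 1.35 and 1.51 against 1.19 and 0.263.

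On the higher side, Snord1c with Snord1b stood at 1.25 and 0.432 RPM in wildtype against 1.74 and 1.78 in Ago2 CD, a log2 fold change of 1.04 (SE 0.66, edgeR adjusted p = 0.999). Snora7a, in Rpl32, stood at 0.867 and 1.83 against 2.66 and 2.04. Gm22806, merged with Snora2b in an intron of Cks2, stood at 1.64 and 2.37 against 3.07 and 3.02, and Gm26202, in an intron of Rpl17, at 0.771 and 0.648 against 1.28 and 1.58. The log2 fold changes of these 3, from 0.60 to 1.00, did not pass the test either.

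For comparison, reads on spliceosomal snRNA genes summed to 154 and 136 RPM in wildtype against 141 and 263 in Ago2 CD. Reads on misc_RNA genes, which include Y and vault RNA, stood at 92.8 and 114 in wildtype against 128 and 164 in Ago2 CD. The snRNA values overlapped between genotypes and the misc_RNA values did not. The difference between these classes and the snoRNA members was not tested.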

How the data were processed

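Small RNA was sequenced from 4 fetal liver libraries, 2 wildtype and 2 Ago2 CD. The authors deposited, per library, a table of distinct read sequences with their counts. Adapters were trimmed with cutadapt, per the submitters' processing notes; its version and settings, and any aligner or build, are not given in the sources used here. The reads carry no molecular identifiers, so 95% intervals (exact Clopper-Pearson) cover counting error only.

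Reads of at least 18 nt were matched without mismatch to GENCODE mouse M21 genes on the sense strand after reads that match miRNA hairpins were set aside. Antisense matches amounted to 0.519% of exact sense matches. Genes with at least 20 reads were kept and merged where they shared at least 50% of the smaller gene's reads. Levels and edgeR library sizes use reads outside Mir451a. Abundance was tested by edgeR's quasi-likelihood test over genes that passed its filter on low counts, and end and length balance by limma on log2 ratios with a pseudocount of 0.5 reads, with Benjamini-Hochberg adjustment over all small RNA genes tested and a threshold of 0.05. Class values had two-sided exact permutation tests. The members, lists and tests were chosen with earlier results of these data known. Named members are the most abundant of each class, those with the smallest p whose groups do not overlap (abundance: a mean of at least 1 RPM, reads per 1000000 reads outside Mir451a), the genes at the limit of 20 reads and the leading members of each list; Gm23246, the 3 members near DQ267100, the neighbours within a host and the fragments described were chosen after their values were seen. Same-numbered libraries did not deviate together (r = -0.72 over 494 features), so numbers were not used as pairs. Alternatives covered scaling, filters, read length, tails, gene ends, DESeq2, a replicate block and each library left out. A few members that the rule names are not reported here. The edgeR fit and the limma fit on log2 ratios were run on simulated counts with larger changes than any member had. Those runs cannot show whether changes of the size seen in members would be found. R 4.3.3, edgeR 4.0.16, limma 3.58.1, DESeq2 1.42.0, Python 3.11.15, NumPy 2.4.6, SciPy 1.17.1 and pandas 2.3.3 were used.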

Additional observations from a re-analysis of the deposited data

How the results depend on the processing

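No member passed the abundance, end balance or length balance test under any alternative run: 0 in each, with the replicate block and with each library left out (range 0 to 0) included. With read length as a term, edgeR gave 4 of 80 members at an unadjusted p under 0.05, all lower, against 72 of 494 features, and 9 features but 0 members passed (lowest adjusted p of a member 0.295). Most class differences (log2 for levels, points for shares, Ago2 CD minus wildtype) were small, and their sign often turned. The scaRNA level (0.64, on few reads) turned under 0 alternatives and kept its sign under 13. The C/D box 5′ end share (-4.65) turned under 1 and kept its sign under 14. Scaling to all reads of at least 18 nt, Mir451a included, gave 0.49 for C/D box and 0.56 for H/ACA levels, and moved the median log2 fold change to 0.51 for members and 0.61 for all features. Adding tailed reads gave 0.054 for the H/ACA level, and adding reads that pass a gene end gave 0.0084 for the ratio of C/D box to H/ACA and -0.53 for the length balance of Gm24313. Within 50 nt libraries the C/D box level was 0.076, the ratio 0.094 and the H/ACA 3′ end share -1.05, and within 46 nt libraries the H/ACA length share was -0.19. Sorting by boxes gave -3.35 for the H/ACA 3′ end share. Medians over genes gave 1.13 for the C/D box 5′ end share and -0.054 for the H/ACA 3′ end share. With the replicate block, number 2 gave 0.50 for the C/D box level, 0.62 for the ratio and 2.05 for the C/D box length share, and number 1 gave 0.10 for the H/ACA level, -6.42 for the H/ACA length share and -1.58 for the H/ACA 3′ end share. With 1 library left out, values ranged from -0.45 to 0.29 for the C/D box level, -0.069 to 0.047 for H/ACA, 0.23 to 1.05 for scaRNA, -0.49 to 0.36 for the ratio, -3.14 to 0.53 for the C/D box and -3.31 to 8.92 for the H/ACA length share, -5.79 to -3.50 for the C/D box 5′ end share and -1.31 to 4.93 for the H/ACA 3′ end share. The C/D box level and length share turned without wildtype replicate 1 (0.13 and 0.22) or Ago2 CD replicate 1 (0.29 and 0.53), as did the ratio (0.19 and 0.36). The H/ACA level and length share turned without wildtype replicate 2 (0.040 and -0.31) or Ago2 CD replicate 2 (0.047 and -3.31). The cause was not tested. Model fits with a lone library in 1 genotype take its spread from the other genotype. Read depth was low: the median member had 58 reads. With reads of at least 20 nt, mean levels fell for Snord80 (5.30 to 1.67 RPM), Snord14c (24.0 to 14.8), Snord35a (5.61 to 3.06), Snord72 (2.60 to 1.15), Snord111 (3.13 to 1.93) and Scarna3b (0.473 to 0.254). With reads that match 1 gene only, Snord14c was at 0.285, Snord80 at 0.044, Gm22806 at 0.523 and Snora7a at 0.614 RPM.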

Other observations

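Some reads matched a member except for 1 to 3 extra bases at the 3′ end. Over all members, reads with 1 to 3 extra bases were 15.8% and 7.67% of exact and tailed reads together in wildtype against 8.77% and 17.5% in Ago2 CD. Reads with a single extra C were 7.86%, 1.15%, 1.43% and 9.91%. Both 50 nt libraries were above both 46 nt libraries, and the genotypes overlapped.

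Several miRNA hairpins lie inside snoRNA or scaRNA genes, and their reads were counted as hairpin reads, not as fragments. Mir1839 stood at 26.2 and 72.4 RPM (reads per 1000000 reads outside Mir451a) in wildtype against 90.8 and 40.8 in Ago2 CD. Mir664, within Snora36b, stood at 5.78 and 13.7 in wildtype against 9.90 and 6.90 in Ago2 CD, and Mir677 at 1.73, 1.51, 2.29 and 1.45. Mir3068 stood at 36.3 and 32.5 in wildtype against 37.2 and 32.7 in Ago2 CD. The genotypes overlapped in each of these hairpins, and none passed edgeR's test (adjusted p = 0.999). Reads of Mir1843a and Mir1843b that match Scarna3b are given with the scaRNAs.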
